A study of Gallus gallus with 4 samples.

Results

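The FGF10-expressing fibroblast nuclei of the chicken lung at embryonic day 13 (E13) were defined by 5 genes. A nucleus was a member when FGF10, EFEMP1, ADAM12, VEGFD and TAFA2 together gave at least 5 unique molecular identifiers (UMIs, each marking a captured RNA molecule). It also needed at least 500 detected genes, at most 1 UMI of the epithelial genes EPCAM and CDH1 together, no UMI of the immune gene PTPRC, and fewer than 5 UMIs of the connective-tissue genes POSTN, COL1A1, EBF2 and EBF3 together. Of the 8705 listed barcodes, 7486 had at least 500 genes, and 458 of these were members (6.12%, exact 95% binomial interval 5.59 to 6.68). The measured values of these genes chose the members, so their levels are a description and no test was made of them.

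All lungs were wild-type. At E13 RNA and accessible chromatin (ATAC) were read from the same nuclei in a multiome assay, and 2 libraries at embryonic day 20 (E20) held RNA alone. The E20 libraries were of epithelial cells, labelled as nuclear RNA, and of lung cells without immune cells, labelled as total RNA. For the E13 run the sorted populations had been mixed in about equal parts, so a share of nuclei describes that mixture. Each group was 1 library, and the number of embryos behind it was not given in the sources used here. There is therefore no test of any difference below. Intervals are exact at the 95% level and cover counting error only, and nuclei were not treated as replicates.

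FGF10 is a secreted growth factor of the lung mesenchyme. In the mouse it signals through an isoform of FGFR2 on the neighbouring epithelium and drives branching of the airways. EFEMP1 encodes an extracellular matrix protein of the fibulin family, ADAM12 a metalloproteinase anchored in the membrane, VEGFD a growth factor for lymphatic vessels, and TAFA2 a small secreted protein.

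Levels are in CPM: UMIs were summed over the nuclei of a set, and the sum for a gene was scaled to a set total of 1000000. Members were set against 3 other sets of E13 nuclei. The first was the 1879 other nuclei without a UMI of EPCAM, CDH1, PTPRC or KDR. The second was 452 connective-tissue nuclei, which had at least 5 UMIs of POSTN, COL1A1, EBF2 and EBF3 and fewer than 5 of the rule genes. The third was 105 nuclei with at least 3 UMIs of BMP5 and MEOX2 and fewer than 5 of either gene group. Of the 1879 other nuclei, 335 were also in the connective-tissue set and 80 in the BMP5 and MEOX2 set. Another 213 (11.3%) held 5 or more rule gene UMIs and were kept from the members only by the limit on connective-tissue genes. The first set is therefore not free of nuclei with high rule gene sums. The median nucleus held 2820.5 UMIs in the members, 3073 in the other nuclei, 3081 in the connective-tissue nuclei and 2924 in the BMP5 and MEOX2 nuclei. The median share of mitochondrial UMIs was 33.7% in the members and 41.8% in the other nuclei, against 35.9% and 34.1% in the connective-tissue and the BMP5 and MEOX2 nuclei. A set of 2322 epithelial nuclei with at least 3 UMIs of EPCAM and CDH1, median 8192 UMIs, gave the background for genes that epithelium should lack.

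The 5 rule genes lay on 4 chromosomes of the galGal6 build named in the submitters' processing notes. The listed start of FGF10 (ENSGALG00000014872) was at position 14032349 of chromosome Z, that of EFEMP1 (ENSGALG00000037901) at 321343 of chromosome 3, and that of ADAM12 (ENSGALG00000041255) at 33704427 of chromosome 6. VEGFD (ENSGALG00000016558) and TAFA2 (ENSGALG00000019361) were both on chromosome 1, at 123415471 and 32879723.

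A member carried between 5 and 45 UMIs of the rule genes, with a median of 10. At the threshold of 5 stood 63 members, and 54 members had 20 or more. All 5 genes were detected in 75 members, 4 in 154, 3 in 157, 2 in 55 and 1 in 17. FGF10 itself had a UMI in 275 of the 458 members (60%), ADAM12 in 419, TAFA2 in 369, EFEMP1 in 347 and VEGFD in 179. No member was chosen on FGF10 or VEGFD alone, whereas 9 were chosen on ADAM12 alone, 7 on EFEMP1 alone and 1 on TAFA2 alone. ADAM12 gave 36.3% of the rule gene UMIs and FGF10 11.7%, so the set is defined by the group of genes more than by FGF10.

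Levels just outside and just inside the threshold are given as a description. FGF10 was at 123 CPM in the 74 nuclei with 4 rule gene UMIs that met the other conditions and at 205 CPM in the 63 members with 5. LIFR, which the rule did not use, was at 833 CPM in nuclei with 3 rule gene UMIs, 1065 CPM with 4, 1358 CPM with 5 and 1293 CPM with 6, against 121 CPM in nuclei with 0. FGFR3 was at 131, 308, 400 and 336 CPM over the same steps and at 59.6 CPM in nuclei with 0. LIFR and FGFR3 levels thus showed no gap between 4 and 5 UMIs. The limit on connective-tissue genes excluded 297 nuclei that passed every other condition, 39.3% of the 755 nuclei with both sums counted together. Their FGF10 level was 263 CPM and their POSTN level 3315 CPM, so many nuclei carried both gene groups. The requirement on EPCAM and CDH1 excluded 147 nuclei and that on PTPRC a further 28.

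Each rule gene was next read in nuclei sorted by the other 4, among all nuclei that met the conditions on EPCAM, CDH1, PTPRC and the connective-tissue genes. FGF10 stood at 6.32 CPM (4.66 to 8.38) in the 1957 nuclei with none of the other 4, at 43.6 CPM (34.4 to 54.6) with 1 or 2, at 156 CPM (125 to 191) with 3 or 4, and at 342 CPM (313 to 373) in the 418 nuclei with 5 or more. VEGFD increased over the same steps from 2.0 to 22.2, 79.0 and 222 CPM. ADAM12, EFEMP1 and TAFA2 also increased at every step, to 1186, 741 and 653 CPM. Nuclei with more UMIs of 4 of the genes thus had more of the fifth. Nuclei in the top step were all members, and the rule was chosen with earlier results of these data known. The increase is therefore a description and no support for the set. The nuclei of the 4 steps had similar depths, with medians between 2507 and 3361 UMIs for FGF10.

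**Figure D1:**
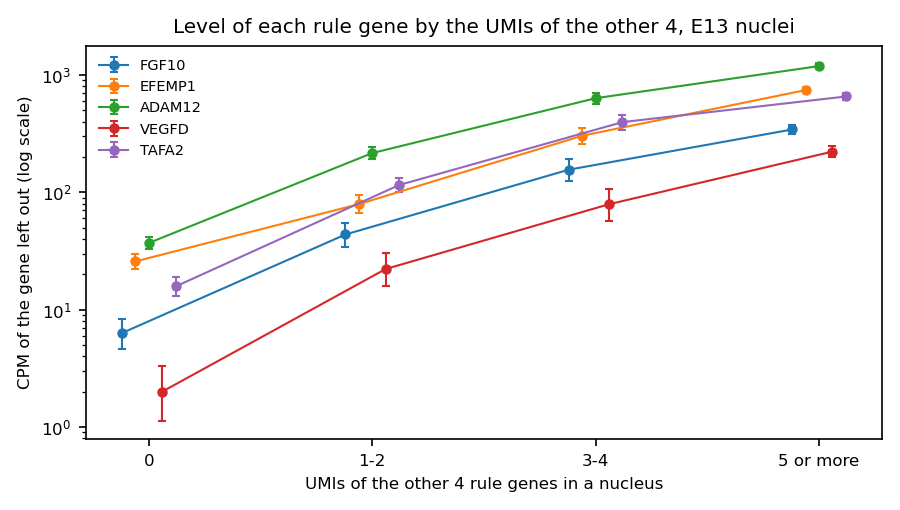
CPM of each rule gene (log scale, bars are exact 95% Poisson intervals) against the UMIs of the other 4 rule genes in the same nuclei. All 5 lines increase at every step, FGF10 from 6.32 to 342 CPM.

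Among the compared sets, the rule fixed where these genes were high. FGF10 was at 381 CPM (352 to 413) in the members, 64.1 in the other nuclei, 38.9 in the connective-tissue nuclei, 34.7 in the BMP5 and MEOX2 nuclei and 4.74 in the epithelial nuclei. ADAM12 was at 1184 CPM in the members and at 207, 91.7, 160 and 18.7 CPM in the same sets. EFEMP1 was at 765 CPM in the members and at 126, 91.2, 166 and 14.7 CPM. Of members thinned to 1000 UMIs, 33.6% (29.2 to 38.1) had an FGF10 UMI, and 60% did without thinning. The thinned share was 0.646% (0.362 to 1.06) in the epithelial nuclei, taken as background, and 4.87% (3.08 to 7.28) in the connective-tissue nuclei. The source of the background was not tested. Of the epithelial nuclei, 81 (3.49%) held 5 or more rule gene UMIs, and a single nucleus held up to 7 FGF10 UMIs. Thinning left out 2 of the 458 members and none of the epithelial or connective-tissue nuclei. EFEMP1 was detected in 19.2% of thinned BMP5 and MEOX2 nuclei (12.2 to 28.1), against 48.7% of thinned members.

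Mesenchymal lists were read in the members against the epithelial nuclei as a description. The 2 sets were chosen on opposite levels of EPCAM and CDH1. The comparison therefore cannot tell fibroblasts from other mesenchyme. Of 2788 genes that reached 50 CPM in either set, 556 were 2-fold or more higher in the members (19.9%) and 386 were lower (13.8%). Of 31 compared transcription factor genes of lung mesenchyme, 20 were higher and 5 lower, with a median log2 ratio of 3.56 against 0.11 over all compared genes. Of 31 compared matrix genes, 26 were higher and 2 lower. Neither list was particular to the members. The transcription factor list, which includes the barred EBF2 and EBF3, summed to 8119 CPM in the members. It summed to 8546 CPM in the connective-tissue nuclei and 9163 CPM in the BMP5 and MEOX2 nuclei. The matrix list summed to 13523, 16912 and 11017 CPM in these 3 sets. The transcription factor genes FOXP1 and FOXP2 were among those lower in the members. TBX4, a transcription factor of lung mesenchyme, was at 166 CPM in the members and 4.59 CPM in the epithelial nuclei. TCF21, another mesenchymal transcription factor, was at 132 and 6.83 CPM, and the growth factor receptor gene PDGFRA at 94 and 2.68 CPM. The collagen gene COL3A1 was at 660 and 60.3 CPM. Markers of other cell types were also present. SFTPC, a surfactant protein gene of epithelium, was at 569 CPM in the members with a UMI in 76.0% of them, and at 1595 CPM in the epithelial nuclei. The 18 epithelial markers summed to 1079 CPM in the members, 1912 CPM in the other nuclei and 4693 CPM in the epithelial nuclei. The 17 smooth muscle and myofibroblast markers summed to 2410 CPM in the members and 3477 CPM in the connective-tissue nuclei. The 9 measured pericyte markers summed to 347 and 2072 CPM in these sets. Among them, RGS5 was at 0 in the members and at 2.78 CPM, from 5 UMIs, in the connective-tissue nuclei. EBF1, a relative of the barred EBF2 and EBF3, is in the pericyte list, and without it the sums were 171 and 709 CPM. The 13 immune markers summed to 91.5 CPM. Doublet scoring marked 26 of the 458 members (5.68%), which were kept.

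A small group of members carried endothelial RNA. The 15 endothelial markers summed to 642 CPM in the members and 275 CPM in the other nuclei, whose definition required KDR to be 0. Of the members, 15 held 5 or more endothelial UMIs, and these 15 nuclei held 99.2% of the members' UMIs of VWF, which encodes von Willebrand factor, 98.2% of those of EGFL7 and 87.5% of those of FLT1. Without them VWF was at 2.77 CPM in the remaining 443 members and at 42.7 CPM in the other nuclei. FGF10 was at 65.0 CPM in the 15 nuclei and at 422 CPM in the 443. Levels of these genes in the members therefore came from a few nuclei.

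The comparison with the connective-tissue nuclei took genes that reached 50 CPM in either set. Of these 2674, 170 were 2-fold or more higher in the members (6.36%) and 139 were 2-fold or more lower (5.2%), and the median log2 ratio was 0.01. Ratios are log2 of CPM with 1 CPM added, and folds are ratios of CPM without it. Genes used to choose either set are not counted. The split between higher and lower depended on the scaling. With CPM computed without mitochondrial, ribosomal protein and haemoglobin genes, 4338 genes were compared. The share of higher genes among those past 2-fold was then 45.8% in place of 55.0%. Of the list genes named below as higher, TGFBR2, SOX11 and ITGA8 did not pass 2-fold with that scaling.

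The 10 named genes with the highest ratios were CCDC141, GAB3, TMEM65, RBFOX1, PIK3AP1, LIFR, CXCL12, INSYN2A, LHFPL3 and CFAP97D1. LIFR, a receptor subunit for leukaemia inhibitory factor with its listed start at 12048358 of chromosome Z, was at 2081 CPM in the members and 321 CPM in the connective-tissue nuclei, 6.47-fold higher (5.93 to 7.08). It had a UMI in 95.9% of members and 48.7% of connective-tissue nuclei. CCDC141 was at 150 and 7.78 CPM, 19.3-fold higher (11.3 to 35.7), with a UMI in 25.5% and 2.43% of nuclei. CXCL12, the chemokine that binds CXCR4, was at 55.3 and 7.78 CPM (7.10-fold, 4.02 to 13.5). RBFOX1, an RNA-binding splicing regulator, was at 212 and 27.2 CPM, and GAB3, an adaptor protein of receptor signalling, at 79.2 and 8.34 CPM. LIFR was thus detected in nearly every member, whereas CCDC141 was seen in a minority.

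The 10 named genes with the lowest ratios were WNT9A, KCNJ8, WT1, NFATC1, AFF3, CNN1, GFRA1, COLEC10, GUCY1A1 and CNTN4. WNT9A, a WNT ligand, had 1 UMI in the members and 92 in the connective-tissue nuclei (83.3-fold lower, 14.6 to 3324). KCNJ8, a potassium channel gene of pericytes, was at 3.69 and 93.4 CPM, and NFATC1, a transcription factor, at 11.1 and 184 CPM. CNN1, which encodes the smooth muscle protein calponin, was at 5.53 and 91.2 CPM, and WT1, a transcription factor of mesothelium, at 3.07 and 80.6 CPM. These genes belong to several cell types. Beside them, 207 of the 452 connective-tissue nuclei (45.8%) held 5 or more UMIs of the pericyte list, against 24 members (5.24%). Without EBF1 these were 95 nuclei (21.0%) and 5 members (1.09%). Of the pericyte list, 6 of the 7 compared pericyte markers were 2-fold or more lower in the members, EBF1 among them. Of 13 compared smooth muscle and myofibroblast markers, 5 were lower, CNN1, ACTG2, MYH11, HHIP and SYNPO2, and 1 was higher, the integrin gene ITGA8 at 488 and 242 CPM. The part of these markers in the other differences was not tested.

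**Figure D2:**
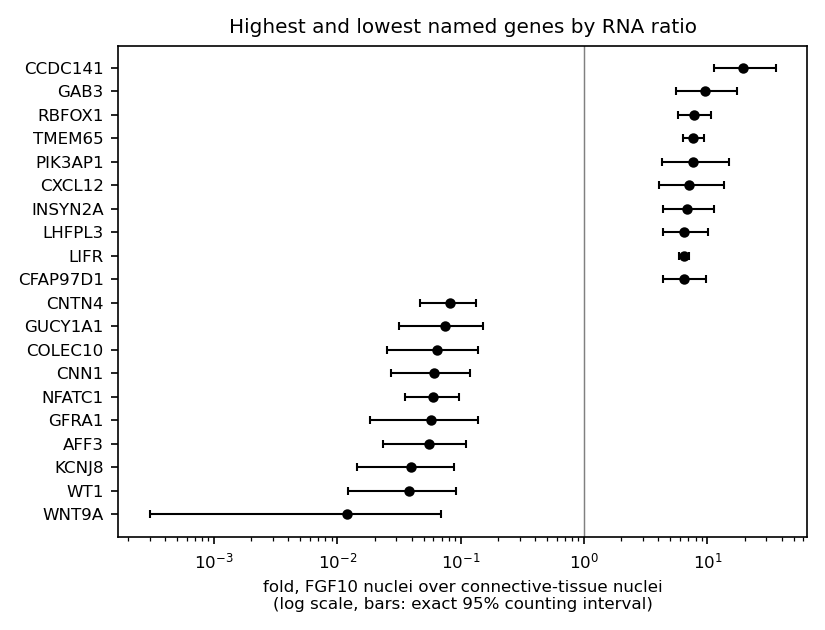
Fold of CPM in the FGF10 nuclei over the connective-tissue nuclei (log scale, bars are exact 95% counting intervals) for the 20 named genes. CCDC141 is the highest at 19.3-fold, and WNT9A, with 1 UMI in the members, has the widest interval.

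Among genes of FGF signalling, the receptor gene FGFR3 set the members apart from the 3 compared sets. FGFR3, with its start listed at 83460342 of chromosome 4, was at 716 CPM in the members, 187 in the other nuclei, 137 in the connective-tissue nuclei, 77.5 in the BMP5 and MEOX2 nuclei and 90.4 in the epithelial nuclei. It was 3.84-fold higher than in the other nuclei (3.54 to 4.16), 5.22-fold higher than in the connective-tissue nuclei (4.54 to 6.01) and 9.25-fold higher than in the BMP5 and MEOX2 nuclei (6.40 to 13.9). It was the only compared member of the FGF list to pass 2-fold in any of the 3 comparisons, out of 6, 6 and 7 compared genes. This depended on the scaling. With CPM computed without mitochondrial, ribosomal protein and haemoglobin genes, 8, 11 and 10 genes of the list were compared. FGF9 and HS6ST2 were then also lower than in the connective-tissue nuclei, and FGFR2 lower than in the BMP5 and MEOX2 nuclei. The 297 nuclei excluded only by the limit on connective-tissue genes had FGFR3 at 630 CPM. A UMI of it was found in 62.6% of them and 63.3% of members, so a high FGFR3 level was not particular to the members. FGFR2, which encodes the receptor of FGF10, was at 354 CPM in the members, 705 CPM in the BMP5 and MEOX2 nuclei and 1083 CPM in the epithelial nuclei. FGF7, a mesenchymal ligand of the same receptor, was at 27.6 CPM in the members and 22.2 CPM in the connective-tissue nuclei (1.24-fold, 0.794 to 1.95). FGF9, a ligand, was at 4.91 and 35.6 CPM. SPRY2, an inhibitor induced by FGF signalling, was at 16.0 and 10.6 CPM (1.51-fold, 0.805 to 2.89), an interval that includes equal levels. FGFR1 was at 37.5 and 47.8 CPM.

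Retinoid genes make, store and read retinoic acid. Of 6 compared, 3 were 2-fold or more higher than in the connective-tissue nuclei and none was lower, and their median log2 ratio was 1.04. ALDH1A3, an enzyme that makes retinoic acid, was at 218 and 52.3 CPM (4.17-fold, 3.32 to 5.30). DHRS3, which reduces retinal, was at 394 and 99 CPM (3.98-fold, 3.36 to 4.72). RARB, a retinoic acid receptor gene, was at 910 and 340 CPM (2.68-fold, 2.44 to 2.95). ALDH1A2, the related enzyme, was at 110 and 125 CPM, and its interval included equal levels (0.883-fold, 0.721 to 1.079). Against the other nuclei 4 of the 6 were higher, RDH10 being the fourth.

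WNT genes gave a mixed picture. Of 14 compared, WNT11, SFRP2 and WNT2B were higher than in the connective-tissue nuclei and WNT9A was lower, with a median log2 ratio of 0.44. The ligand WNT11 was at 237 and 56.2 CPM (4.22-fold, 3.38 to 5.31), the ligand WNT2B at 54.1 and 20.6 CPM, and SFRP2, a secreted WNT antagonist, at 85.4 and 31.7 CPM. WNT2 was at 0 in the members and also in the BMP5 and MEOX2 nuclei. In the Hedgehog list none of 9 compared genes was higher and 3 were lower, with a median of -0.44. HHIP, an inhibitor that binds Hedgehog ligands, was at 28.9 and 112 CPM, and the co-receptor gene BOC at 20.9 and 61.2 CPM. PTCH1, the Hedgehog receptor gene, was at 175 and 239 CPM (0.734-fold, 0.630 to 0.855), and GLI2, a transcription factor of the pathway, at 271 and 203 CPM.

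In the BMP list 1 of 14 compared genes was higher, BMP5 at 324 and 150 CPM, and BMP4 was at 43.0 and 25.6 CPM. In the TGF-beta list of 12, the receptor gene TGFBR2 was higher at 350 and 168 CPM, and LTBP1, which encodes a latent TGF-beta binding protein, was lower at 47.3 and 196 CPM. Of 14 compared vascular and lymphatic growth factor genes outside the rule, 5 were higher, CXCL12, ANGPT1, PDGFRA, PDGFD and SLIT2, and 2 were lower, SEMA3D and PDGFA. ANGPT1, a ligand of the endothelial receptor TEK, was at 211 and 58.4 CPM (3.61-fold, 2.89 to 4.54).

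Matrix genes differed in both directions. Of 33 compared, 5 were higher than in the connective-tissue nuclei and 8 were lower, and the median log2 ratio was -0.56. The proteoglycan gene VCAN was at 4740.5 and 1902 CPM (2.49-fold, 2.39 to 2.60) and the fibronectin gene FN1 at 1856 and 668 CPM (2.78-fold, 2.60 to 2.97), and NID1, MATN2 and MGP were also higher. Among the lower genes, COL14A1 was at 56.5 and 376 CPM, COL12A1 at 91.5 and 306 CPM, COL1A2 at 332 and 704 CPM, and the tenascin gene TNC at 165 and 512 CPM. The rule limited COL1A1 and POSTN in the members and required them in the connective-tissue set, so genes that go with them are not independent of the choice. Of the metalloproteinase list, 1 gene was higher, ADAMTS9 at 612 and 207 CPM, and 3 were lower, among them ADAMTSL1 at 46.7 and 126 CPM. The number of its genes compared is not given here. Over all compared genes 6.36% were higher and 5.2% lower. In CPM without mitochondrial, ribosomal protein and haemoglobin genes, 20 of the list were compared, 2 higher and 5 lower.

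Most transcription factor genes of lung mesenchyme did not pass 2-fold. Of 34 compared, 5 were higher, among them MAF, MEOX2, SOX5 and SOX11, and 5 were lower, WT1, EBF1, ZEB1, SOX6 and FOXP2, with a median log2 ratio of 0.07 beside 0.01 over all compared genes. MAF was at 422 and 170 CPM, and EBF1 at 176 and 1363 CPM (0.129-fold, 0.114 to 0.146). TBX4 was at 166 and 145 CPM (1.15-fold, 0.964 to 1.36). Among 30 guidance and adhesion genes, 8 were higher and 5 lower. EPHA7, a receptor for ephrins, was at 460 and 82.8 CPM (5.55-fold, 4.65 to 6.67), and the mesenchymal cadherin gene CDH11 at 380 and 150 CPM. CDH2 and EPHA5 were among the lower genes, at 24.0 and 206 CPM and at 3.69 and 51.7 CPM.

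**Figure D3:**
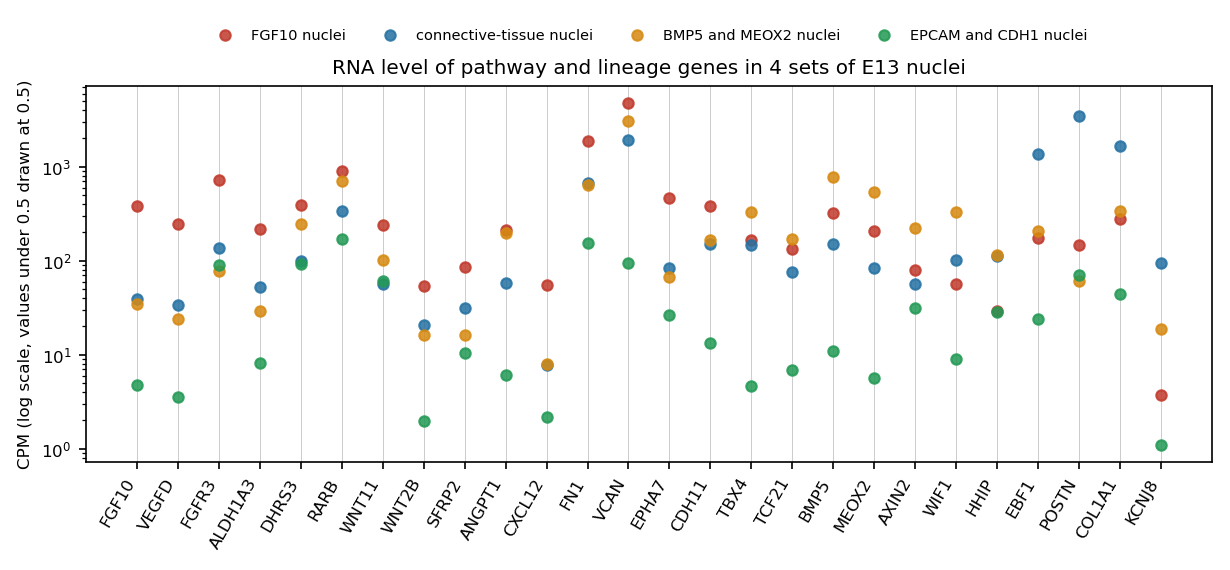
CPM (log scale) of 26 pathway, matrix and lineage genes in 4 sets of E13 nuclei, each point the sum over a set. FGFR3, ALDH1A3, WNT11 and EPHA7 are highest in the FGF10 nuclei, BMP5, MEOX2, AXIN2 and WIF1 in the BMP5 and MEOX2 nuclei, and EBF1, POSTN and COL1A1 in the connective-tissue nuclei. The sets were chosen on FGF10, VEGFD, BMP5, MEOX2, POSTN and COL1A1 among the genes drawn, so where these are high was fixed.

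The BMP5 and MEOX2 nuclei were the second mesenchymal set. Of 2744 compared genes, 174 were 2-fold or more higher in the members (6.34%) and 142 were lower (5.17%), with a median log2 ratio of -0.08. This set held 374428 UMIs in all, so 3 UMIs correspond to 8.01 CPM and low levels are imprecise. The 8 named higher genes were EYA2, HPSE2, SORCS3, CORIN, RAB3C, APOA1, KCND2 and CNTFR, each with 4 or fewer UMIs in the BMP5 and MEOX2 nuclei. EYA2, a transcriptional coactivator, was at 53.4 CPM in the members and had no UMI in the 105 nuclei, which makes it at least 6.67-fold higher at a floor of 3 UMIs over the set, with 5.31 as the lower limit of the exact interval. CNTFR, the ligand-binding subunit that pairs with LIFR in the receptor for ciliary neurotrophic factor, was at 87.2 CPM in the members with 142 UMIs and had 3 UMIs in the other set (10.9-fold, 3.65 to 53.4). LIFR itself was at 2081 and 748 CPM.

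The lower genes named by the same rule included STMN2, VIPR1, ZNF536, NCAM2, WIF1, LRP4 and SNTG2. STMN2, a tubulin-binding protein gene known from neurons, was at 30.7 and 323 CPM (10.5-fold lower, 7.51 to 14.9). WIF1, a secreted WNT inhibitor, was at 57.1 and 331 CPM (5.80-fold lower, 4.39 to 7.67). WNT genes again differed in both directions. Of 14 compared, SFRP2, WNT3A, WNT2B, ROR1 and WNT11 were higher in the members, and WIF1, LEF1, AXIN2, TCF7 and NKD1 were lower, with a median log2 ratio of 0.02. WNT3A was at 57.7 CPM in the members, 16.0 CPM in the BMP5 and MEOX2 nuclei and 289 CPM in the epithelial nuclei. Nuclei marked by doublet scoring held 57 of the 94 WNT3A UMIs of the members, and without them it was at 26.1 CPM. None of the 105 BMP5 and MEOX2 nuclei was marked. AXIN2, a feedback inhibitor and widely used target of the WNT pathway, was at 79.9 and 224 CPM (0.356-fold, 0.268 to 0.474). LEF1 and TCF7, transcription factors of the pathway, were at 22.1 and 123 CPM and at 91.5 and 206 CPM.

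Other lists also differed from the BMP5 and MEOX2 nuclei. In the guidance and adhesion list 5 genes were higher in the members and 6 lower. Of the smooth muscle and myofibroblast markers 4 were lower and 0 higher. Over all 2744 compared genes 6.34% were higher and 5.17% lower. The numbers compared in these 2 lists are not given here. In CPM without mitochondrial, ribosomal protein and haemoglobin genes, 32 guidance genes were compared, 5 higher and 7 lower. Of 12 smooth muscle markers compared in that CPM, 4 were lower and 0 higher. ALDH1A3 was at 218 and 29.4 CPM (7.42-fold, 4.10 to 15) and RDH10 was higher, but RARB was at 910 and 700 CPM (1.30-fold, 1.14 to 1.49). Of 29 compared transcription factors, SOX5, HOXA4 and SOX11 were higher and none was lower. TBX4 was at 166 and 331 CPM (0.503-fold, 0.405 to 0.627), just short of 2-fold. Of 33 matrix genes, MATN2 and FN1 were higher and 8 were lower, among them DCN at 297 and 777 CPM and LUM at 84.2 and 318 CPM, which encode small proteoglycans. Of the compared genes of the Hedgehog list, 3 were lower, HHIP and BOC among them, and SCUBE1 was higher. In CPM without mitochondrial, ribosomal protein and haemoglobin genes, 10 of the list were compared, 3 lower and 1 higher.

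Against all 1879 other nuclei, 245 of 2525 compared genes were 2-fold or more higher in the members (9.7%) and 96 were lower (3.8%), with a median log2 ratio of 0.18. This split depended on the scaling. With CPM computed without mitochondrial, ribosomal protein and haemoglobin genes, the median over the same 2525 genes shifted by -0.19. More genes then reached 50 CPM, and of 4325 compared, 243 were higher and 252 lower. Over this larger set, the share of higher genes among those past 2-fold was 49.1% in place of 71.8%. When the other nuclei were limited to those with a UMI of PDGFRA, TBX4, TBX5, FOXF1 or TCF21, 78 genes were higher and 84 lower. With at most 40% mitochondrial UMIs, 126 genes were higher and 167 lower. The numbers of genes compared under these 2 limits are not given here.

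The 15 named higher genes were CCDC141, VWF, GAB3, FLT1, C3H1orf95, KLHL4, EGFL7, CCBE1, CFAP97D1, LIFR, RASL11B, TMEM65, INSYN2A, EPHA7 and DAB1. Of these, VWF, FLT1, KLHL4 and EGFL7 had 87.5% to 99.2% of their UMIs in the 15 members with endothelial RNA. Without those 15 members FLT1 was at 7.62 CPM in the members and 8.66 CPM in the other nuclei, and KLHL4 at 3.46 and 15.1 CPM. Without nuclei with 5 or more endothelial UMIs in either set, the log2 ratio of VWF was -1.10 and that of EGFL7 -0.85. CCBE1, a secreted protein that promotes the activation of the lymphatic growth factor VEGFC, was at 74.9 CPM in the members and 14.0 CPM in the other nuclei (5.34-fold, 4.04 to 7.06), and 0.820% of its UMIs were in those 15 nuclei. It was found in 17.9% of members. LIFR was at 2081 and 421 CPM (4.94-fold, 4.70 to 5.20).

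The 10 named lower genes were CD83, FOXP4, ADAMTSL1, ADAMTS18, PLEKHA7, MMEL1, NFATC1, CPA6, DNAH5 and LAMA3. Of these, 8 had their highest level of the compared sets in the epithelial nuclei, for example ADAMTSL1 at 46.7 CPM in the members, 285 CPM in the other nuclei and 647 CPM in the epithelial nuclei. The exceptions were NFATC1, highest in the connective-tissue nuclei at 184 CPM, and CD83, at 108 CPM in the other nuclei and 8.63 CPM in the epithelial nuclei. Beside these, the epithelial markers summed to 1912 CPM in the other nuclei, and their part in the result was not tested. CPA6 and DNAH5 changed sign when the other nuclei were limited to those with a UMI of a mesenchymal gene, to log2 ratios of 0.83 and 0.24.

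Across the 3 comparisons, 145 genes were 2-fold or more higher than in both the other and the connective-tissue nuclei, which is 59.2% of the 245 and 85.3% of the 170. Over all compared genes, 9.7% were higher than in the other nuclei and 6.36% than in the connective-tissue nuclei. For the BMP5 and MEOX2 nuclei the share was 6.34%. These comparisons share the members, and 335 connective-tissue nuclei are also among the other nuclei, so part of the overlap is built in. Higher than in all 3 sets were 72 genes, among them ALDH1A3, CCBE1, CXCL12, EPHA7, FGFR3, FN1, LIFR, WNT11 and WNT2B, which were picked from the 72 after their values were seen. In the 297 nuclei excluded only by the limit on connective-tissue genes, ALDH1A3 was at 227 CPM, against 218 CPM in the members. EPHA7 was at 370 and 460 CPM and LIFR at 1269 and 2081 CPM in these 2 sets.

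The rule read RNA alone, so accessible chromatin of the same nuclei at the rule genes was a measure it did not use. The authors' peak table assigned 52 peaks to the 5 genes, and 26 of them had at least 20 counts in the members. Summed over all 52, members had 638 peak CPM (counts scaled to a total of 1000000 peak counts) and the other nuclei 453 (1.41-fold, 1.32 to 1.5). Against the connective-tissue nuclei the ratio was 1.24 (1.15 to 1.35), against the BMP5 and MEOX2 nuclei 1.26 (1.10 to 1.45) and against the epithelial nuclei 2.21 (2.08 to 2.33). By gene, the ratio to the other nuclei was 1.59 for FGF10 (1.39 to 1.83), 1.48 for ADAM12 (1.34 to 1.62) and 1.45 for VEGFD (1.22 to 1.71). For EFEMP1 it was 1.09 (0.884 to 1.33) and for TAFA2, with 3 peaks, 0.745 (0.516 to 1.05), and both intervals include equal accessibility. Against the BMP5 and MEOX2 nuclei the ADAM12 ratio was 1.69 (1.35 to 2.13), and of the 5 genes it alone had a counting interval above 1. FGF10 was at 1.07 (0.821 to 1.42) and VEGFD at 1.03 (0.743 to 1.45), and the EFEMP1 and TAFA2 intervals also included equal accessibility. Against the connective-tissue nuclei FGF10 was at 1.63 (1.36 to 1.96) and ADAM12 at 1.29 (1.15 to 1.45). The intervals of VEGFD, EFEMP1 and TAFA2 in that comparison included equal accessibility. The median nucleus had 3400 peak counts in the members and 2353 in the other nuclei.

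The FGF10 promoter peak at chromosome Z, 14033174 to 14034092, was at 24.5 peak CPM in the members from 53 counts. It was at 10.9 in the other nuclei, 11.7 in the connective-tissue nuclei, 8.29 in the BMP5 and MEOX2 nuclei from 4 counts, and 3.2 in the epithelial nuclei. The ratio to the other nuclei was 2.25 (1.55 to 3.25). A group of 3 distal peaks between 14009519 and 14013241, listed 19.1 to 21.9 kb from the gene start, was 1.65-fold to 2.05-fold higher in the members than in the other nuclei. In the BMP5 and MEOX2 nuclei, which had 34.7 CPM of FGF10 RNA, these peaks were at 24.9, 33.2 and 39.4 peak CPM, against 21.7, 29.1 and 18.5 in the members. The third was lower in the members (0.469-fold, 0.265 to 0.857) and the intervals of the others included equal accessibility. These values rest on 12, 16 and 19 counts in the BMP5 and MEOX2 nuclei.

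At ADAM12, the promoter peak differed little, at 21.7 peak CPM in the members and 18.9 in the other nuclei (1.15-fold, 0.803 to 1.62). The 23 distal peaks differed in both directions, 11 with a ratio to the other nuclei below 1. The lowest, at 33577881 to 33578787, had 5 counts in the members and 57 in the other nuclei (0.268-fold, 0.0838 to 0.662). The peak at chromosome 6, 33572729 to 33573614, within the gene, was at 24.5 and 6.35 (3.85-fold, 2.52 to 5.92). The peak at 33707680 to 33708572, listed 3.25 kb upstream of the start, was at 34.2 and 11.2 (3.05-fold, 2.18 to 4.27), and that at 33569296 to 33570206 was at 51.3 and 17.1 (3.0-fold, 2.29 to 3.93). The VEGFD promoter peak at chromosome 1, 123415021 to 123415916, was at 15.2 and 5.29 (2.88-fold, 1.73 to 4.77). The EFEMP1 promoter peak was at 28.2 and 20 (1.41-fold, 1.02 to 1.93).

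**Figure D4:**
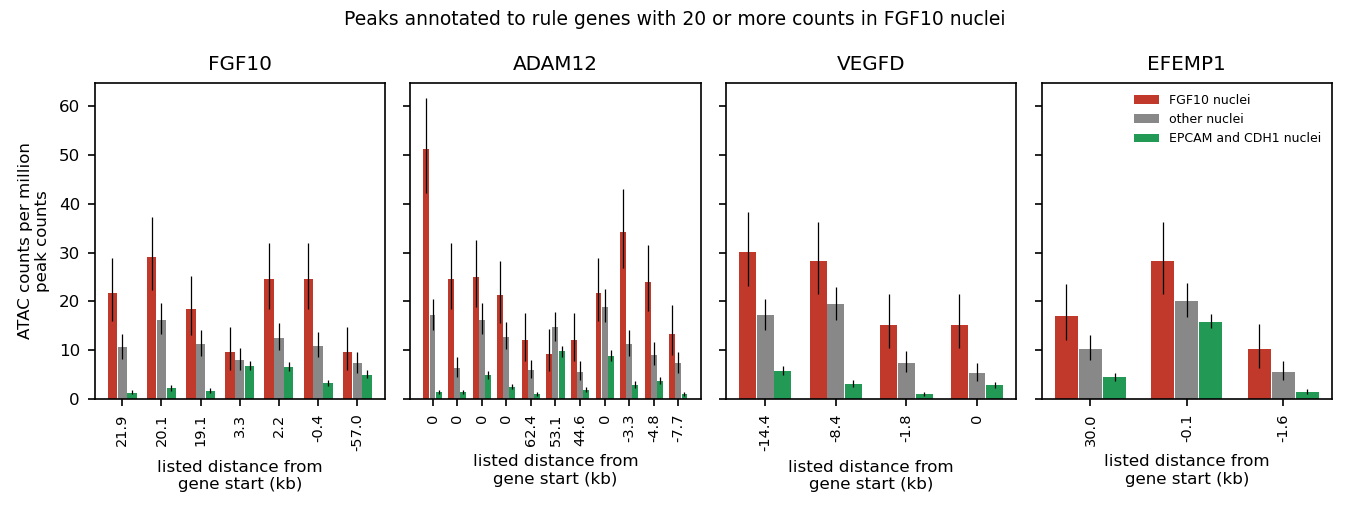
ATAC peak CPM (bars are sums over a set, lines are exact 95% Poisson intervals) at peaks annotated to 4 rule genes. Only peaks with at least 20 counts in the members are drawn, which leaves out peaks that are low in the members. Peaks are labelled by the listed distance from the gene start, where 0 includes peaks within the gene. The FGF10 promoter peak is at 24.5 in the FGF10 nuclei and 10.9 in the other nuclei, while the ADAM12 promoter peak is at 21.7 and 18.9.

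Over all peaks that reached 9.24 peak CPM in either set, the level of 20 counts in the members, 2952 of 37137 were 2-fold or more higher in the members than in the other nuclei (7.95%) and 3190 were lower (8.59%). The median log2 ratio was 0.12. When only the 31370 peaks with 20 counts in the members are taken, those 2952 are 9.41%, but that limit favours peaks that are high in the members. Distal peaks passed 2-fold more often than promoter peaks in both directions. Of 25959 distal peaks 2808 were higher (10.8%) and 2859 lower (11.0%), and of 11140 promoter peaks 142 were higher (1.27%) and 328 lower (2.94%). Depth per peak was not matched between these classes. Of the 2952 higher peaks, 1640 (55.6%) were also 2-fold or more higher than in the connective-tissue nuclei. The share of all compared peaks that were so is not given here, and both comparisons use the same members.

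The 10 peaks with the highest ratios were all listed as distal, and 8 were assigned to genes with symbols, SYTL3, ADCYAP1R1, FGF20, MLLT1, ACO1, TMCC1, CADPS2 and UBE2E3. The FGF20 peak at chromosome 4, 63272054 to 63272921, was at 37.0 peak CPM in the members, 5.75 in the other nuclei, 3.61 in the connective-tissue nuclei and 0.784 in the epithelial nuclei (6.43-fold over the other nuclei, 4.32 to 9.72). It had no count in the BMP5 and MEOX2 nuclei. FGF20, an FGF ligand, was nearly absent from the RNA, at 0.614 CPM in the members and 0.896 CPM in the other nuclei. The MLLT1 peak was at 25.9, 3.93 and 0.903 in the members, the other nuclei and the connective-tissue nuclei, and MLLT1 RNA was at 61.4 and 27.2 CPM in the first 2 of these sets. The assignment of a peak to a gene is by position in the authors' table.

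Peaks and RNA went in the same direction for most genes past 2-fold. Of the 241 genes 2-fold or more higher in RNA than in the other nuclei that had peaks, 199 (82.6%) had a summed peak ratio above 1, with a median log2 ratio of 0.29. This was so of 49.7% of all 2497 compared genes with peaks, and of 11 of 94 genes lower in RNA (11.7%). The change in peaks was smaller than that in RNA, since 6 of the 241 reached 2-fold in summed peaks. Against the connective-tissue nuclei, 137 of 165 genes higher in RNA (83.0%) had a summed peak ratio above 1. So did 44 of 137 genes lower in RNA (32.1%), with a median log2 ratio of -0.15, and 49.4% of all 2621 compared genes with peaks. FGFR3 peaks summed to 354 peak CPM in the members, 229 in the other nuclei and 189 in the connective-tissue nuclei (1.54-fold and 1.87-fold). ALDH1A3 peaks were at 130 and 78.8 in the members and other nuclei (1.65-fold, 1.42 to 1.91). LIFR peaks were 1.20-fold higher than in the other nuclei (1.05 to 1.36), beside 4.94-fold for its RNA. The interval of the BMP5 peak ratio was 0.833 to 1.40, which includes equal accessibility. TBX4 and TBX5 peaks were 1.72-fold and 1.62-fold higher than in the other nuclei. Peaks of NKX2-1, the transcription factor gene of lung epithelium, were at 26.8 in the members, 106 in the other nuclei and 221 in the epithelial nuclei.

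The members were not uniform. Clustering them on variable genes without the rule genes gave 7 sub-clusters, which are described by their genes with no test. Sub-cluster 1, with 163 nuclei (35.6%), was led by EYA2, RASL11B, RAB3C and ALDH1A3, and had FGF10 at 601 CPM (529 to 680), VEGFD at 465 CPM and FGFR3 at 1311 CPM. Sub-cluster 2, with 90 nuclei (19.7%), was led by STMN2, FAT3, WIF1 and PRDM6, and had FGF10 at 360 CPM (293 to 438), VEGFD at 94.5 CPM and FGFR3 at 72.7 CPM. BMP5 was at 811 CPM and WIF1 at 218 CPM in sub-cluster 2, and at 298 and 28.6 CPM in sub-cluster 1. The BMP5 and MEOX2 nuclei, chosen outside the members, had WIF1 at 331, STMN2 at 323 and FGFR3 at 77.5 CPM. Their BMP5 level of 777 CPM was fixed by the choice of nuclei on BMP5 and MEOX2. The high FGFR3 level of the members was thus not seen in sub-cluster 2. FGFR3, BMP5, WIF1 and STMN2 were open to the clustering, so their differences between sub-clusters are not independent of it. Median depths of sub-clusters 1 and 2 were similar at 2483 and 2743.5 UMIs. Their median rule gene sums were 11 and 7 UMIs, so sub-cluster 2 lay nearer the threshold.

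Sub-cluster 3, with 73 nuclei, was led by HAS2, which makes hyaluronan, and COL26A1, and also by THBS1 at 1620 CPM, and its FGF10 level was 284 CPM (222 to 359). Sub-cluster 4, with 54 nuclei, was led by CA2, ALAS1 and GLIPR2, and had CXCL12 at 154 CPM and FGF10 at 438 CPM. Sub-cluster 5, with 41 nuclei, was led by cell division genes such as HMMR, CENPE and CENPF and had TOP2A at 394 CPM and FGF10 at 520 CPM (414 to 644). Sub-cluster 6, with 27 nuclei, was led by PLEKHA7, FREM2 and BMPER, had SFTPC at 1356 CPM and KRT18 at 265 CPM, and 21 of its 27 nuclei were marked by doublet scoring at a median of 7262 UMIs. Sub-cluster 7, with 10 nuclei, was led by VWF at 3396 CPM and EGFL7. All 10 were among the 15 members with endothelial RNA, their median depth was 17696.5 UMIs, and FGF10 was at 19.8 CPM. Sub-clusters 6 and 7 met the rule at high depth while carrying genes of epithelium and endothelium.

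**Figure D5:**
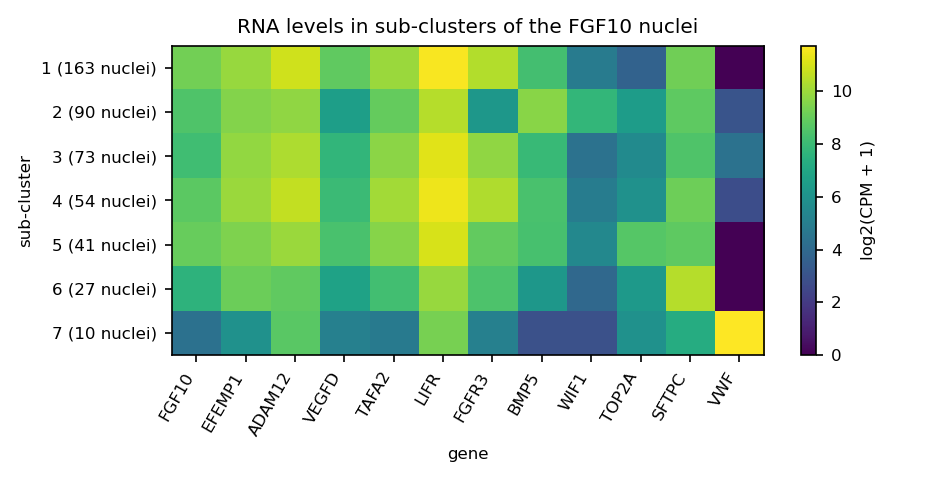
Log2 of CPM + 1 for 12 genes in the 7 sub-clusters of the FGF10 nuclei. FGFR3 is low in sub-cluster 2 at 72.7 CPM against 1311 CPM in sub-cluster 1, SFTPC is highest in sub-cluster 6 and VWF in sub-cluster 7.

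Members with and without an FGF10 UMI were also set side by side, leaving out the 15 with endothelial RNA. The 269 members with FGF10 had a median of 2902 UMIs and the 174 without it 2683.5. Of 2574 compared genes, 24 were 2-fold or more higher in members with FGF10 (0.932%) and 30 were lower (1.17%). FGFR3 was at 892 and 646 CPM (1.38-fold, 1.22 to 1.57) and LIFR at 2474 and 1866 CPM (1.33-fold, 1.23 to 1.43), so both were also present in members without an FGF10 UMI. The higher genes included the cell division genes CENPE, CENPF, KIF11 and BUB1B, CENPF being at 175 and 76 CPM (2.30-fold, 1.63 to 3.32). The lower genes included the contractile gene MYH11, at 24.7 and 139 CPM, of which 5 nuclei held 78 of 99 UMIs. WIF1 was at 33.7 and 110 CPM, and 5 nuclei held 35 of its 91 UMIs, so these differences rest on few nuclei. These genes were picked after their values were seen.

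The same rule was applied to the E20 libraries. Stage, assay, software and sort all differ from E13, so their effects cannot be told apart. Among cells that met the conditions on EPCAM, CDH1 and PTPRC, 100 of 3832 in the E20 epithelial library (2.61%, 2.13 to 3.16) and 122 of 2694 in the library without immune cells (4.53%, 3.77 to 5.38) met the rule, against 458 of 3736 at E13 (12.3%, 11.2 to 13.4). Without the limit on connective-tissue genes, 624 of the 3832, 603 of the 2694 and 755 of the 3736 had at least 5 rule gene UMIs. Most E20 cells with that many were thus left out by this limit. In cells with at least 5 connective-tissue UMIs, COL1A1 was at 16505 and 8479 CPM at E20 and 1745 CPM at E13. Its part in the lower shares at E20 was not tested. The E20 libraries shared 106 barcodes with each other and none with E13.

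The rule genes parted at E20. In cells with at least 5 UMIs of the connective-tissue genes, which could be formed at both stages, EFEMP1 was at 2076 and 2207 CPM in the E20 libraries and 268 CPM at E13. VEGFD was at 256 and 296 CPM, against 98.4 CPM at E13. FGF10 was at 37.1 (31.7 to 43.3) and 39.7 (33.6 to 46.6) CPM, against 141 CPM (129 to 155) at E13. ADAM12 was at 43.5 and 35.2 CPM against 501 CPM, and TAFA2 at 2.05 and 0.265 CPM, from 9 UMIs and 1 UMI, against 329 CPM. The genes that chose these cells also differed by stage. POSTN had a UMI in 57.3% and 45.7% of them at E20 and 89.3% at E13. COL1A1 had a UMI in 98.0% and 98.8% at E20 and 85.6% at E13. The same limit may therefore have taken unlike cells at the 2 stages. Of the rule gene UMIs in the cells that met the rule, EFEMP1 gave 88.4% and 83.2% in the epithelial library and the library without immune cells at E20, and 23.5% at E13. FGF10 had a UMI in 17 of the 100 and 32 of the 122 E20 cells.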

How the data were processed

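The members and the 23 gene lists were chosen with earlier results of these data known. The authors deposited unnormalized UMI counts of genes in each barcode, plus counts of ATAC peaks in each nucleus at E13, made with cellranger-arc 2.0.0 at E13 and cellranger 4.0.0 at E20 per the file headers. The deposited peak table, in no further unit, gives each peak's position, gene and distance in bp. The galGal6 build is per the submitters' processing notes. How barcodes were chosen and whether intron reads were counted is not given in the sources used here.

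Counts were summed over the nuclei of a set and divided by the set total (1627892 UMIs in the members, 6694087 in the other nuclei). Log2 ratios were taken with 1 CPM added over genes that reached 50 CPM in either set, without mitochondrial, ribosomal protein and haemoglobin genes and the genes used to choose the sets. A 2-fold limit is a description, and sums within 1 library allow no test. Intervals were exact Poisson for levels, exact Clopper-Pearson for shares and the exact conditional binomial for ratios. UMIs are not independent of preparation, so intervals and the floor of 3 counts cover counting error only. The ratio step was tested on simulated counts. Named genes were those with a symbol and the highest and lowest ratios (15 and 10 against the other nuclei, 10 and 10 against connective-tissue nuclei, 8 and 8 against BMP5 and MEOX2 nuclei), the extremes and FGF-related members of the lists, and peaks by the 20-count limit. Sub-cluster genes, CCBE1, LIFR at the threshold and the E20 levels were described after their values were seen. Doublets were scored against simulated pairs at 0.8% per 1000 barcodes and kept. Sub-clusters used 1500 variable genes, 20 components, 15 neighbours and Leiden resolution 0.6 with seed 0. Scripts used Python 3.11.15, scipy 1.17.1 and scanpy 1.11.5. Of 590 listed genes, 529 were in the table. A few genes that these rules select are not reported here.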

Additional observations from a re-analysis of the deposited data

How the results depend on the processing

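No paired analysis was possible because each group is 1 library and no result comes from a test. Leaving out nuclei with 5 or more endothelial UMIs, dropping the limit on connective-tissue genes, and setting the peak limit in either set, were chosen after seeing the data. The number of members was 251 with at least 1000 genes and 755 with no limit on connective-tissue genes. Without mitochondrial, ribosomal protein and haemoglobin genes in CPM, the median log2 ratio shifted by -0.19 against other nuclei. More genes then reached 50 CPM. Those compared with other, connective-tissue and BMP5 and MEOX2 nuclei numbered 4325, 4338 and 4436. Of these, 252, 258 and 248 were lower in members, and 264 were higher than in the last. With at least 10 CPM, genes higher in members than in other nuclei, genes higher in members than in connective-tissue nuclei and genes higher in members than in BMP5 and MEOX2 nuclei numbered 466, 397 and 686. At that limit, genes lower in members than in other nuclei, genes lower in members than in connective-tissue nuclei and genes lower in members than in BMP5 and MEOX2 nuclei numbered 428, 491 and 652, and with at least 200 CPM 93, 61 and 44 higher and 14, 26 and 36 lower. Thinned to 1000 UMIs, lower genes numbered 146, 215 and 386, and 328 were higher than in BMP5 and MEOX2 nuclei. With at most 40% mitochondrial UMIs, 126 genes were higher and 167 lower than in other nuclei, 218 were lower than in BMP5 and MEOX2 nuclei, and 1857 peaks were higher. With other nuclei limited to those with a UMI of 5 mesenchymal genes, 78 genes were higher, 22 of 25 named values moved by more than the counting error and 1 did not, and log2 ratios changed sign to 0.83 for CPA6 and 0.24 for DNAH5. With members limited to no EPCAM, CDH1 or KDR UMI they changed sign to -0.99 for EGFL7, -0.89 for KLHL4 and -1.60 for VWF, and without nuclei with 5 or more endothelial UMIs to -0.85 for EGFL7 and -1.10 for VWF. Higher peaks numbered 57 at 4-fold and 1097 with at least 50 counts. The log2 peak ratio at the rule genes was 0.36 with at least 1000 genes. At a threshold of 3 rule gene UMIs, the rule was met by 265 cells in the epithelial library at E20 and by 216 in that without immune cells. Settings that alter CPM, the nuclei or the CPM limit also alter how many genes are compared, so these counts are not shares. The cause of these shifts was not tested. Of 879 recomputations of 61 named values, 761 moved by less than the counting error, 111 moved by more and 7 changed sign. The 761 include all 61 values at the limit of 10 CPM and all 61 at that of 200 CPM. Those limits only choose which genes are counted, so the named values could not move under them.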
